A study of Mus musculus with 6 samples.

Results

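NF-kB is the family of transcription factors that switches on inflammatory genes in macrophages, and the 10 genes described here encode its subunits and the proteins that hold it in check. They were chosen by name, as the rows Nfkb1, Rel, Nfkb2, Relb, Nfkbia, Nfkbib, Nfkbie, Nfkbid, Nfkbiz and Tnfaip3 among the 22377 genes of the count table. All 10 were in the table and all 10 passed the filter on low counts. The data are 6 RNA sequencing libraries from mice bearing subcutaneous Lewis lung carcinoma (LLC) tumors, 3 labelled wt and 3 labelled ko, the latter also described by the labels as a knockdown group. According to the methods of the study, macrophages (CD45+ CD11b+ F4/80+) were isolated by cell sorting from tumors grown in Npm1+/+ or Npm1+/- mice of both sexes, implanted at 6 to 8 weeks of age and killed 2 weeks later, while the labels give tumor tissue and a knockdown. The 2 descriptions were not reconciled, and the groups are called wt and ko here. In a constitutive heterozygote every host cell carries the mutant allele and the implanted tumor cells do not, so the allele was not confined to macrophages. The study describes the profiled samples as individual mice, 2 in a legend for these data, whereas the files hold 3 libraries per group. Which mouse gave which library is not given in the sources used here.

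In resting cells the NF-kB dimers are kept in the cytoplasm by inhibitors with ankyrin repeats, of which IkBα, encoded by Nfkbia, is the best known. Signals from Toll-like receptors, the IL-1 receptor or the TNF receptor lead to phosphorylation and degradation of these inhibitors, and the released dimers enter the nucleus. NF-kB then induces the genes of several of its own inhibitors, Nfkbia and Tnfaip3 foremost, which closes a negative feedback loop. In tumor-associated macrophages (TAMs) this pathway is known for the control of inflammatory cytokines.

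The sites that NF-kB binds in DNA are short and can be read in the promoters of these genes. RefSeq promoter windows of GRCm38.p6, from 250 bases before to 50 bases after a transcription start, were at hand for 7 of the 10 genes, namely Nfkb2, Rel, Nfkbia, Nfkbib, Nfkbie, Nfkbid and Tnfaip3. Both strands were searched for the kappa B consensus, and overlapping matches were merged. Of these 7 genes, 6 had at least 1 match, and the exception was Nfkbib. Among all 32851 windows in the table, 8.46% held a match, and among all 27025 genes 9.55% did. The matches below are shown because these genes are the feedback targets and the subunits described next. Each is written 5′ to 3′ on the strand of the gene, with the match in capitals and positions counted from the start site as 0. The match of Nfkbia, at chr12:55492658-55492685 on the minus strand, began at position -29.
Nfkbia: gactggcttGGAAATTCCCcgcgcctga
That of Tnfaip3 nearest to its start, at chr10:19015404-19015431 on the minus strand, began at -12, and a further match lay at -125.
Tnfaip3: atttccatcGGAAATCCCCctgttggca
Nfkbie, at chr17:45555585-45555612 on the plus strand, had its match at -106.
Nfkbie: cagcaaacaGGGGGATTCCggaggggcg
In Rel, at chr11:23771042-23771070 on the minus strand, a pair of overlapping matches began at -92.
Rel: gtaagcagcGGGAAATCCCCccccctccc
Nfkb2, at chr19:46304689-46304717 on the plus strand, had a pair of overlapping matches at -39 and another match at -11, besides those at starts further downstream.
Nfkb2: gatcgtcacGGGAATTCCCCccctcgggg
For Nfkbid, on the plus strand, matches began at -226 and -181 from a start downstream of the first. That at -226, at chr7:30422171-30422198, is shown.
Nfkbid: ccccgccctGGGACTTCCCagagcacca
These matches describe letters in a window and do not show binding. The binding motif of STAT factors, TTCNNNGAA, which is its own reverse complement, was searched in the same windows. It was present in those of Nfkb2 and Nfkbid, 2 of the 7 genes, against 9.55% of all genes. By window it was present in 3 of 12, against 8.3% of all windows. Nfkb2 and Nfkbid have several windows each, and so more chances of a match.

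Total counts ranged from 36550775 to 38147320 per library, and levels below are CPM, that is counts relative to the size of the library, after TMM scaling, unless FPKM is stated. The library wt1 stood apart from the others on the first principal component, at -108 against -4.54 to 52.0, and the estimates of the 10 genes that moved most without it are given beside them. Npm1, the targeted gene, measured 142.0, 380.0 and 381.1 CPM in wt1 to wt3 and 440.8, 498.3 and 342.8 CPM in ko1 to ko3. The libraries labelled ko thus had no lower Npm1, and the directions below are those between the libraries as labelled. The 12 macrophage markers summed to between 16497 and 22009 CPM in the wt libraries and to between 9847 and 16332 CPM in the ko libraries, and all 12 had a lower estimate in the latter. The fibroblast list summed to between 36.5 and 570 CPM in wt and between 428 and 828 CPM in ko, with 10 of 10 markers higher in estimate. Neutrophil markers summed to between 1805 and 2017 CPM in wt and 795 and 1579 CPM in ko, and T cell markers to between 16.6 and 96.8 CPM in wt and 77.4 and 226 CPM in ko. The remaining lists lay below 200 CPM in every library, apart from dendritic cell markers at 328 to 525 CPM. No listed marker found in the table was at 0 in all libraries, and 0 markers of any list passed the test. Scaling the libraries to the macrophage list instead of TMM moved the median log2 fold change of all genes from 0.022 to 0.59, so the estimates below are read relative to the other genes. The part of these differences in the results below was not tested, and in RNA of whole samples fewer cells of a type and less RNA per cell cannot be told apart.

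The question of the comparison was how the transcriptome of TAMs differs with Npm1 gene dosage. None of the 10 NF-kB genes differed between the ko and the wt libraries beyond the spread between replicates. The test was the quasi-likelihood (QL) F-test of edgeR, with p-values adjusted by Benjamini-Hochberg across all 13884 genes tested. With it 0 of the 10 genes passed an adjusted p of 0.05, against a background of 0% of all genes. In this fit 0 of the 10 had an unadjusted p under 0.05, against a background of 15.2% of all genes (6.9% with ko higher and 8.31% with ko lower). Other fits are given below. The values of the groups overlapped in all 10, whereas they did not overlap in 25.9% of all genes tested. The estimates ran from a log2 fold change of -0.35 for Nfkbie to 0.31 for Rel. The 95% interval of the fold change lay within a 2-fold change in either direction for 10 of the 10 genes. It did so for 57.5% of all genes tested, a share not matched for level. Intervals are wider at low counts, so these shares do not show that the 10 genes are unusually steady. DESeq2 on the same 6 libraries called 0 of the 10 as well, where it called 0.778% of all genes.

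**Figure D1:**
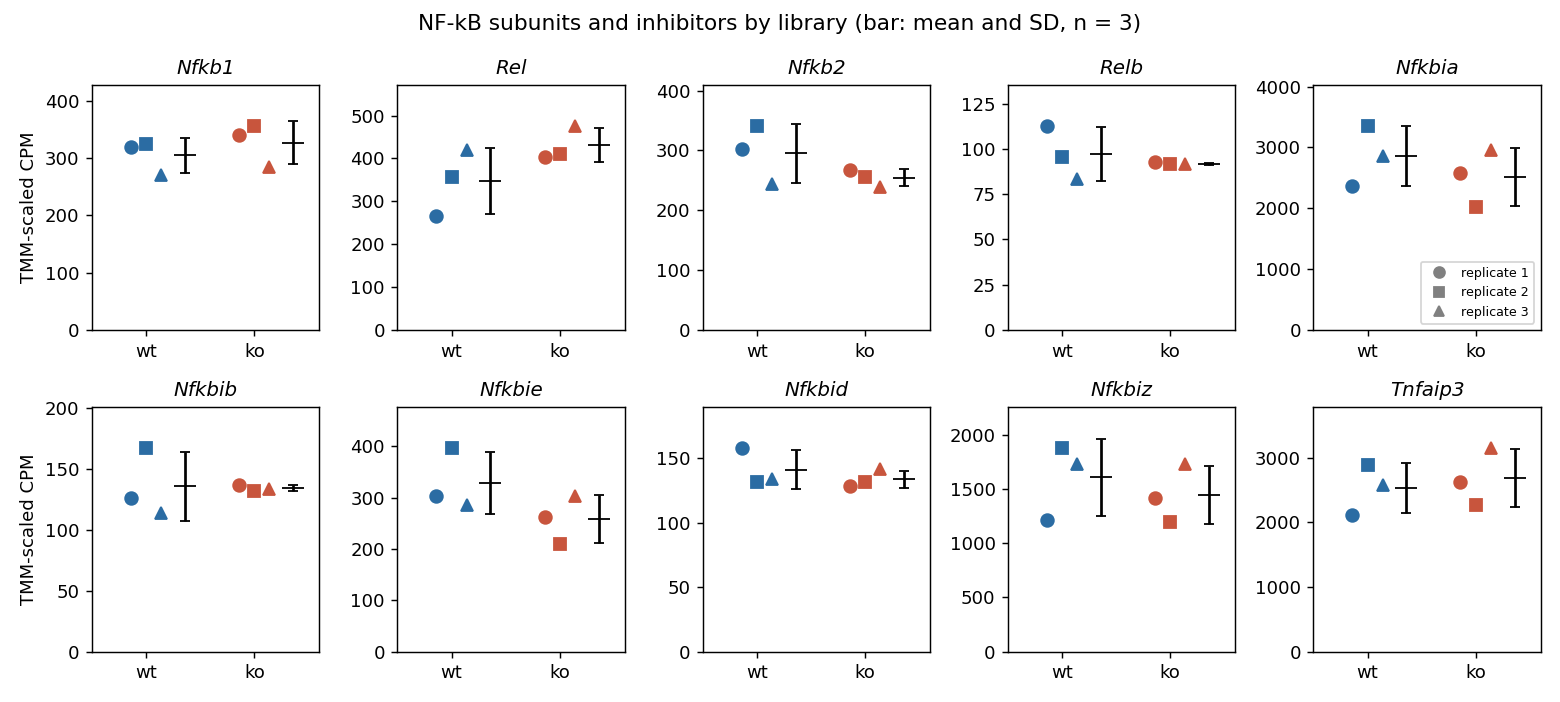
TMM-scaled CPM (vertical axes from 0, 1 scale per gene) of the 10 genes in the 3 wt (blue) and 3 ko (red) libraries, with symbols for the replicate number and a black mark for the mean and SD of each group. The groups overlap in each panel, and the lowest Rel value, 266.5 CPM, is that of wt1.

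Among the subunits, Nfkb1 encodes p105, which is processed to p50, the usual DNA-binding partner of RelA and c-Rel. Its locus in GRCm38 is on chromosome 3, minus strand, from 135584655 to 135691547. It measured 319.7, 324.9 and 269.8 CPM in wt1, wt2 and wt3 and 339.3, 356.0 and 284.7 CPM in ko1, ko2 and ko3. Replicate 3 was the lowest in both groups, and the groups overlapped. The means were 305 ± 30.4 CPM (SD, n = 3) and 327 ± 37.3 CPM (SD, n = 3). The log2 fold change was 0.10 (95% interval -0.23 to 0.43, edgeR QL adjusted p = 0.686), and without wt3 the estimate was 0.0023.

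Rel encodes c-Rel, the subunit known for the control of IL-12 and IL-23 in myeloid cells. It lies on chromosome 11 from 23736847 to 23770970 on the minus strand and had the highest estimate of the 10 genes. Its level was 266.5, 356.1 and 418.4 CPM in wt1 to wt3 and 404.2, 410.7 and 476.1 CPM in ko1 to ko3. The libraries wt1 and wt2 were the lowest of the 6, and wt3 lay within the range of the ko libraries. The means were 347 ± 76.4 CPM (SD, n = 3) in wt and 430.3 ± 39.8 CPM (SD, n = 3) in ko. The log2 fold change was 0.31 (standard error 0.18, 95% interval -0.11 to 0.73, edgeR QL adjusted p = 0.377). Without wt1 this estimate was 0.15.

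Nfkb2, on chromosome 19 from 46304320 to 46312385 on the plus strand, encodes p100, which holds RelB in the cytoplasm until the non-canonical pathway processes it to p52. It measured 302.5, 341.3 and 243.1 CPM in wt1 to wt3 and 268.1, 254.8 and 239.6 CPM in ko1 to ko3. The wt1 and wt2 values were the 2 highest, while wt3 lay inside the ko range. Nfkb2 overlaps Psd over 299 bp, which had up to 44 counts. The log2 fold change was -0.22 (95% interval -0.57 to 0.13, edgeR QL adjusted p = 0.424). Relb, its partner, on chromosome 7 from 19606217 to 19629438 on the minus strand, had the lowest level per length of the 10 genes, as given below in FPKM. It measured 112.9, 95.7 and 83.5 CPM in wt1 to wt3 and 92.6, 91.8 and 91.6 CPM in ko1 to ko3. The ko libraries differed by little from each other and sat inside the wt range, at a mean of 92.0 ± 0.53 CPM (SD, n = 3) against 97.4 ± 14.8 CPM (SD, n = 3). Its log2 fold change was -0.082 (95% interval -0.39 to 0.23). Without wt1 it was 0.035.

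Rela, which encodes the main activating subunit p65 and is not among the 10, measured 187.7, 197.6 and 148.5 CPM in wt1 to wt3 and 175.9, 173.5 and 156.5 CPM in ko1 to ko3. Here too the groups overlapped, with a log2 fold change of -0.077 (95% interval -0.405 to 0.25, edgeR QL adjusted p = 0.759). For each of the 5 subunit genes the interval therefore allowed no more than a change of 0.73 on the log2 scale in either direction.

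The cytoplasmic inhibitors bind the dimers and mask their nuclear localization. Nfkbia, on chromosome 12 from 55489410 to 55492647 on the minus strand, encodes IkBα and had the highest level per length of the 10 genes. Its level was 2367.4, 3355.5 and 2853.1 CPM in wt1 to wt3 and 2577.1, 2014.6 and 2960.5 CPM in ko1 to ko3. The highest value was in wt2 and the lowest in ko2, and the other 4 libraries were interleaved. The means were 2859 ± 494 CPM (SD, n = 3) in wt and 2517 ± 476 CPM (SD, n = 3) in ko, with a log2 fold change of -0.18 (95% interval -0.66 to 0.30, edgeR QL adjusted p = 0.609). Without wt1 the estimate was -0.31, and without ko2 it was -0.054.

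Nfkbie, on chromosome 17 from 45555703 to 45563169 on the plus strand, encodes IkBε, an inhibitor induced later than IkBα, and had the lowest estimate of the 10. It measured 304.0, 397.9 and 285.0 CPM in wt1 to wt3 and 262.1, 209.2 and 302.5 CPM in ko1 to ko3. As for Nfkbia, wt2 was highest and ko2 lowest, and ko3 lay between wt3 and wt1. The means were 329 ± 60.5 CPM (SD, n = 3) and 258 ± 46.8 CPM (SD, n = 3). The log2 fold change was -0.35 (standard error 0.19, 95% interval -0.79 to 0.086, edgeR QL adjusted p = 0.356), the smallest adjusted p of the 10 genes.

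Nfkbib, on chromosome 7 from 28758251 to 28767512 on the minus strand, encodes IkBβ, which is degraded more slowly. It measured 126.3, 167.5 and 113.4 CPM in wt1 to wt3 and 137.1, 132.0 and 133.3 CPM in ko1 to ko3. The ko values all fell between those of wt1 and wt2. Its log2 fold change was -0.017 (95% interval -0.39 to 0.35), the closest to 0 of the 10. Over 778 bp Nfkbib overlaps Sirt2, which is on the opposite strand and had up to 4116 counts, and whether the counting used strand is not stated, so its level is uncertain.

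Nfkbid and Nfkbiz encode IkBNS and IkBζ, nuclear relatives of the inhibitors that work on NF-kB already bound to DNA, IkBζ being required for a secondary set of genes such as Il6. Nfkbid, on chromosome 7 from 30421732 to 30428746 on the plus strand, measured 158.5, 132.0 and 133.7 CPM in wt1 to wt3 and 128.3, 131.7 and 141.4 CPM in ko1 to ko3. It was the steadiest of the 10 genes, its highest library being 1.23-fold above its lowest. Its log2 fold change was -0.079 (95% interval -0.36 to 0.20, edgeR QL adjusted p = 0.71).

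Nfkbiz, on chromosome 16 from 55811375 to 55838899 on the minus strand, measured 1210.4, 1882.1 and 1727.7 CPM in wt1 to wt3 and 1419.5, 1195.1 and 1726.0 CPM in ko1 to ko3. The wt1 and ko2 libraries were the lowest, 1 of each group, and the groups overlapped. Its log2 fold change was -0.15 (95% interval -0.66 to 0.35, edgeR QL adjusted p = 0.693). Without wt1 the estimate was -0.32, and without wt2 it was -0.026. Without wt1 and ko3, DESeq2 gave -0.50 with an adjusted p of 0.0262, and edgeR -0.47 with an adjusted p of 0.162. That fit kept 2 libraries per group. It left out the ko library nearest to wt on the first principal component, ko3 at 11.7 against 41.4 and 52.0 for ko1 and ko2. Its p-values are therefore a check on sensitivity only. The DESeq2 call of Nfkbiz was the only call of any of the 10 genes in the fits run, and in that fit DESeq2 called 9.4% of all genes tested. It called 0 of the 10 as higher there, against 3.95% of all genes.

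Tnfaip3 encodes A20, which edits ubiquitin chains on signalling proteins upstream of the kinase that phosphorylates IkBα. It lies on chromosome 10 from 19000910 to 19015657 on the minus strand. Its level was 2117.4, 2890.2 and 2578.3 CPM in wt1 to wt3 and 2629.1, 2266.7 and 3155.6 CPM in ko1 to ko3. The lowest library was wt1 and the highest ko3. The means were 2529 ± 389 CPM (SD, n = 3) and 2684 ± 447 CPM (SD, n = 3), with a log2 fold change of 0.086 (95% interval -0.36 to 0.53, edgeR QL adjusted p = 0.805). Without wt1 the estimate was -0.030.

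**Figure D2:**
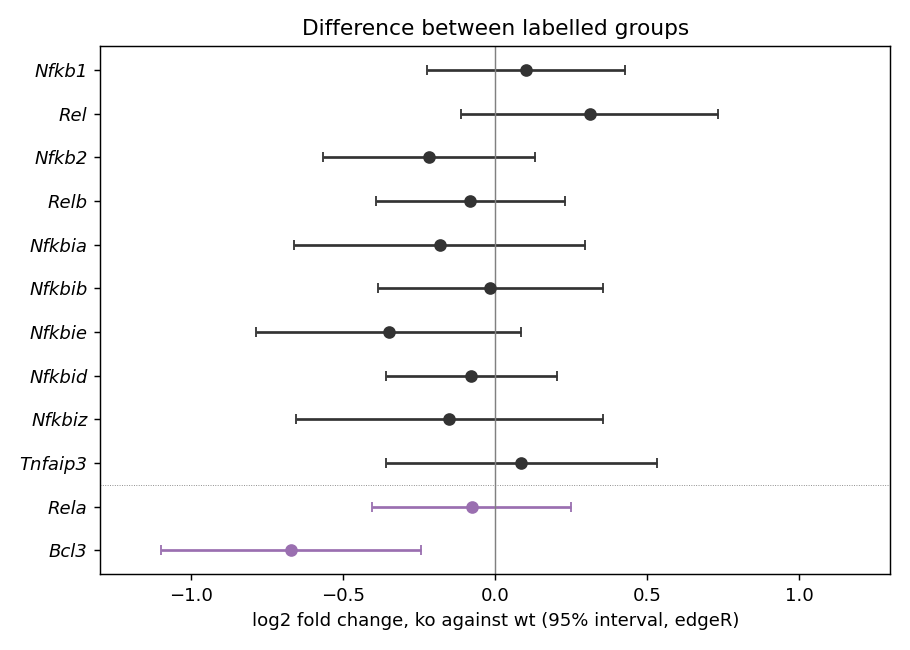
Log2 fold change of ko against wt (horizontal axis) with its 95% interval from edgeR for the 10 genes (black) and for Rela and Bcl3 (purple). The intervals of the 10 genes and of Rela include 0, and that of Bcl3 runs from -1.10 to -0.24.

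The remaining gene of the inhibitor family, Bcl3, encodes a nuclear partner of p50 and p52 homodimers. It is not among the 10 and lay lower in every ko library. It measured 153.8, 147.1 and 102.9 CPM in wt1 to wt3 and 93.1, 71.9 and 88.4 CPM in ko1 to ko3. The groups did not overlap, as was the case with ko lower in 12.6% of all genes tested. The log2 fold change was -0.67 (standard error 0.18, 95% interval -1.10 to -0.24), and it did not pass the adjustment (edgeR QL unadjusted p = 0.00712 and adjusted p = 0.328). Bcl3 also overlaps the antisense gene Gm16174, which had at most 30 counts. In the promoter window of Bcl3 the kappa B consensus began at 2 on the minus strand, at chr7:19822735-19822762.
Bcl3: cggcggcagGGGAAGTCCCgctgcccgg

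Single libraries differed within the groups, and several genes did so in the same way. For each gene, log2 CPM was centred on its own mean over the 6 libraries, and the likeness of a pair of genes was taken as the root mean square difference of the centred values. The closest pair was Nfkbia and Nfkbiz, at 0.0808 on the log2 scale, followed by Relb and Nfkbid at 0.082. In both Nfkbia and Nfkbiz, wt2 was the highest library and ko2 the lowest. Nfkbie and Tnfaip3 lay at 0.135 and 0.143 from Nfkbia. The most unlike pair was Rel and Nfkbie, at 0.434, as Rel was lowest in wt1 and Nfkbie in ko2. The library wt2 was the highest of the 6 for 5 of the 10 genes, and ko2 and wt3 were each the lowest for 3. The same counts over all tested genes, and the likeness of all other pairs, were not computed. Neither is thus shown to be particular to the 10 genes.

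**Figure D3:**
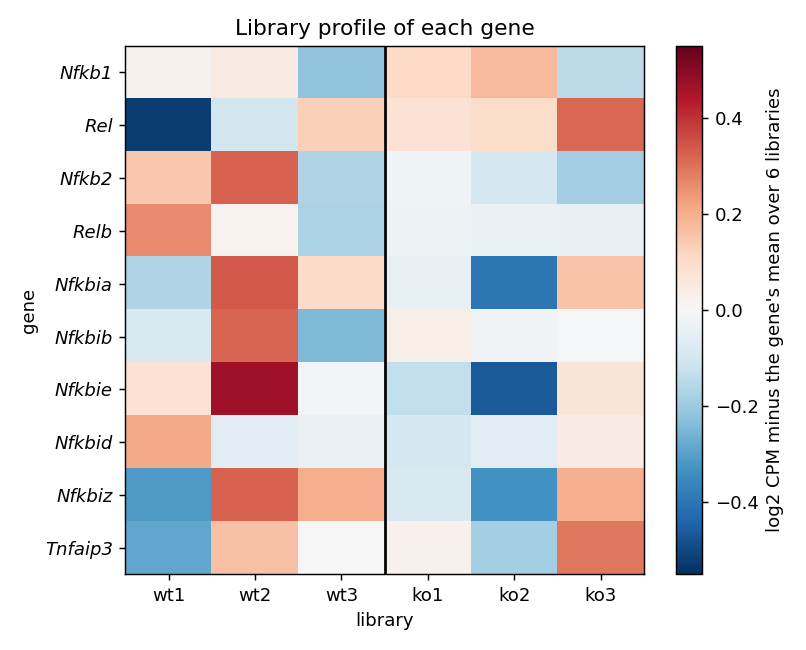
Centred log2 CPM of the 10 genes (rows) in the 6 libraries (columns), red above and blue below the mean of the gene, with a line between wt and ko. Nfkbia, Nfkbie and Nfkbiz are highest in wt2 and lowest in ko2, with Nfkbiz nearly as low in wt1 (-0.312 against -0.331). Tnfaip3 is highest in ko3 and lowest in wt1, and Rel is at -0.52 in wt1.

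The same measure was taken against all other tested genes with a mean of at least 10 CPM, over the 6 libraries. The genes with the profile most like Nfkbia were Il1rap at 0.0409, Srgn at 0.0418 and Birc3 at 0.0525. Those nearest to Nfkbie were Cd83, Ninj1 and Basp1, at 0.0443 to 0.0611. Tnfaip3 was nearest to Ripk2, Pik3r1 and Il18, at 0.055 to 0.0611, and Nfkbiz to Adam9, Ms4a4a and Rbms1, at 0.0424 to 0.053. Chd1 and Cul2 were among those nearest to Rel, at 0.0417 and 0.0462. The other 5 genes had their nearest neighbours at 0.0246 to 0.0652, among them Prcc for Nfkb1, Unc50 for Nfkb2, Nans for Relb, Ralgds for Nfkbib and Ttpal for Nfkbid. These neighbours were picked from 8090 genes. All lay closer than the closest pair among the 10, at 0.0808, but a choice from so many more genes tends to be closer in any case. The comparison therefore cannot decide whether a likeness is particular to the 10 genes, and none is shown.

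A ratio of the counts of 2 genes within a library does not depend on how libraries are scaled, and all 45 pairs among the 10 genes were formed. In 9 of the 45, or 20.0%, the ratios of the wt and ko libraries did not overlap. The same held for 24.3% of all pairs of tested genes with a count in every library, and for 32.5% of pairs of genes with at least the mean CPM of Relb, so the share among the 10 was not above the background. Of the 9 pairs, Tnfaip3 to Nfkbia had the widest gap between the groups relative to its range, and it is named for that reason, after its values were seen. The ratio was 0.894, 0.861 and 0.904 in wt1 to wt3 and 1.02, 1.13 and 1.07 in ko1 to ko3. The means were 0.886 ± 0.022 (SD, n = 3) in wt and 1.07 ± 0.053 (SD, n = 3) in ko. Counts are not scaled by gene length, so a ratio above 1 does not mean more Tnfaip3 than Nfkbia per length. In FPKM, Nfkbia was the higher in every library, at 1398 to 1984 against 413 to 640. The pairs that follow are examples and were not ranked by their gap. Rel to Nfkbiz and Nfkbie to Tnfaip3 had gaps of 0.218 and 0.212 of their range, wider than those of the 2 examples. The 45 ratios share the same 10 genes and are not independent. Rel to Nfkbia was 0.113, 0.106 and 0.147 in wt1 to wt3 and 0.157, 0.204 and 0.161 in ko1 to ko3. Nfkb2 to Nfkb1 went from 0.946, 1.05 and 0.901 in wt to 0.79, 0.716 and 0.842 in ko. By contrast, Nfkbiz to Nfkbia, the pair with the closest profiles, kept between 0.511 and 0.606 in all 6 libraries, and the groups overlapped.

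**Figure D4:**
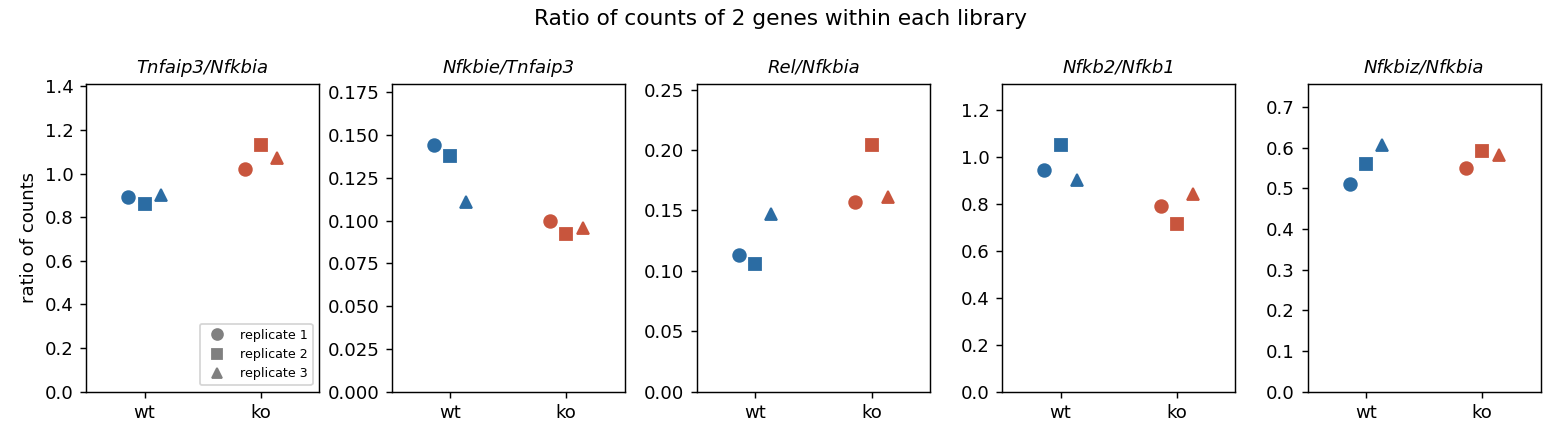
Ratio of the counts of 2 genes within each library (vertical axes from 0) for 5 of the 45 pairs, with symbols for the replicate number, in wt (blue) and ko (red). Tnfaip3/Nfkbia lies between 0.861 and 0.904 in wt and between 1.02 and 1.13 in ko, and Nfkbiz/Nfkbia overlaps.

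Between genes, levels were compared per length, in the FPKM values of the authors. Nfkbia was the highest, at a mean of 1692 FPKM over the 6 libraries (range 1398 to 1984). Tnfaip3 followed at 545 FPKM (413 to 640.2) and Nfkbiz at 390.5 FPKM (290.1 to 451), and these 2 overlapped. Nfkbie came next at 119 FPKM (98.4 to 152), apart in FPKM from its neighbours on either side. Nfkb1, Nfkbib, Nfkbid and Rel had means of 74.8, 63.6, 60.2 and 52.5 FPKM, and each overlapped the next. Nfkb2 at 24.3 FPKM (20.6 to 28.2) and Relb at 10.9 FPKM (9.44 to 12.1) were apart from the rest. The order of the lowest genes depended on the length. The length behind the FPKM was 11300 bases for Nfkb2 and 8706 for Relb, against 4584 and 3885 bases of exon in GENCODE, while for Nfkb1 it was 4249 against 12061. Per kilobase of GENCODE exon, Nfkb2 had 59.97 CPM, and Nfkb1 and Relb were lowest at 26.2 and 24.4 CPM and overlapped. On that scale Nfkbie, at 68.7 to 130.7 CPM, also overlapped the next gene, Nfkbib, at 52.27 to 77.22 CPM. The 4 most abundant genes kept their order with either length, all of them inhibitors or nuclear relatives of the inhibitors. In counts, the 10 genes together took from 0.68% of all counts in wt1 to 0.928% in wt2, and the share in the ko libraries was 0.867%, 0.81% and 0.922%. Nfkbia alone made up between 52.4% and 57.8% of their summed FPKM.

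The surrounding pathway was described by 3 lists. The first held 35 genes, chiefly of upstream signalling, among them the kinases of the IkB kinase complex, the TRAF adaptors and the MyD88 and IRAK proteins. It also held Rela and Bcl3, which encode a subunit and a nuclear partner and are counted with it below. All 35 were tested and 0 passed. The median log2 fold change was -0.038, against -0.081 for the 10 genes and 0.022 for all genes tested. At an unadjusted p under 0.05 there were 0 higher and 4 lower genes, 11.4% of the list against 15.2% of all genes. The groups did not overlap for 2 higher and 7 lower genes of the 35, where 13.3% and 12.6% of all genes did so, so the total was near the background of 25.9%. The smallest p-values among the lower ones were those of Bcl3, Irak4 and Tradd. Irak4, the kinase next to MyD88, measured 44.8, 27.1 and 28.7 CPM in wt1 to wt3 and 19.5, 16.7 and 25.6 CPM in ko1 to ko3. Its groups did not overlap, with a log2 fold change of -0.70 (edgeR QL adjusted p = 0.328). Tradd, an adaptor of the TNF receptor, had a log2 fold change of -0.50 with the same adjusted p, and its ko libraries too lay below all wt libraries. On the higher side, Malt1, a protease that cleaves A20, measured 259, 511 and 550.1 CPM in wt1 to wt3 and 622, 667 and 717 CPM in ko1 to ko3. The ko libraries were above all wt libraries, with a log2 fold change of 0.60 (edgeR QL adjusted p = 0.329). Birc2 and Skp1 followed, at 0.50 and 0.29.

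Of 17 other negative regulators, 0 passed and the median log2 fold change was -0.026. Nkiras2, a Ras-like protein that binds the inhibitors, was the 1 gene of the 17 whose groups did not overlap, against 25.9% of all genes (12.6% with ko lower). It measured 79.1, 46.7 and 53.2 CPM in wt1 to wt3 and 41.1, 34.3 and 37.4 CPM in ko1 to ko3. Its log2 fold change was -0.66 (edgeR QL adjusted p = 0.328). Zc3h12a and Tollip were next among the lower genes, at -0.20 and -0.14, and Otud7b, Tax1bp1 and Cyld were first among the higher ones, at 0.63, 0.35 and 0.12.

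Genes that macrophages are known to induce through NF-kB were listed as well. Of 40, 39 were tested, Ccl20 having at most 1 count in any library, and 0 passed. The median was -0.041, with 19 higher and 20 lower estimates and a range from -0.85 to 1.58. At an unadjusted p under 0.05 there were 5 higher and 2 lower genes, 17.9% of the list against 15.2% of all genes. The groups did not overlap for 5 higher and 1 lower of the 39 genes, where 13.3% and 12.6% of all genes did so. Tnf, the first of the higher genes, measured 393, 541 and 393 CPM in wt1 to wt3 and 704, 711 and 769.7 CPM in ko1 to ko3. Each ko library was above each wt library, as with ko higher in 13.3% of all genes tested. The log2 fold change of Tnf was 0.72 (95% interval 0.34 to 1.10, edgeR QL adjusted p = 0.328), and DESeq2 gave an adjusted p of 0.0259. Irf1, an interferon regulatory factor, measured 299.9, 286 and 226 CPM in wt1 to wt3 and 394, 412 and 375 CPM in ko1 to ko3, again without overlap. Csf2, which encodes GM-CSF, was near the floor at 0.197 to 1.07 CPM. Nos2, the inducible nitric oxide synthase, measured 55.4, 80.7 and 87.0 CPM in wt1 to wt3 and 42.9, 27.1 and 57.9 CPM in ko1 to ko3, and wt1 and ko3 overlapped. Its log2 fold change was -0.80 (edgeR QL adjusted p = 0.328). Cd40 and Cd83, of antigen presentation, followed at -0.41 each.

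**Figure D5:**
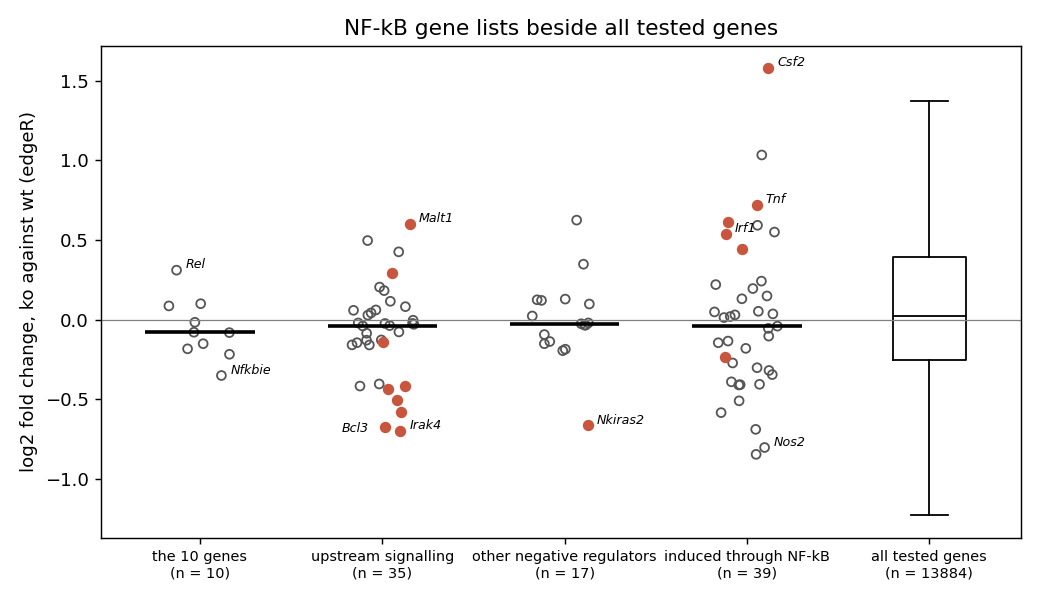
Log2 fold change of ko against wt from edgeR (vertical axis) for each gene of the 4 lists, filled red where the wt and ko libraries do not overlap, with a bar at the median, beside a box of all 13884 tested genes (quartiles, whiskers to 1.5 times the box height, outer genes not drawn). The 10 genes lie between -0.35 and 0.31 and none is filled. The upstream list includes Rela and Bcl3.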

How the data were processed

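RNA of 3 wt and 3 ko libraries was analysed. The authors deposited counts per gene, whole numbers without normalization, and FPKM values, in which each count is scaled by the library total and a length fixed for that gene. The submitters' processing notes name mm10, and the aligner, counter and annotation are not given in the sources used here. Coordinates were taken by symbol from GENCODE M21 and promoters from RefSeq, both GRCm38.

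Counts were filtered with filterByExpr, scaled by TMM and compared with the quasi-likelihood test of edgeR 4.0.16 in R 4.3.3, with Benjamini-Hochberg adjustment at 0.05. log2 CPM used a prior count of 2. Alternatives used DESeq2 1.42.0, and limma 3.58.1 on log2 of FPKM plus 1 or 0.1, a scale on which changes of low genes are understated. Other scalings and filters, a replicate block and leaving out libraries were also tried. At this depth a count of 0 allows up to 3 counts, or 0.0716 to 0.0845 CPM, for counting error only. The scripts were tested on simulated data. The labels call the libraries separate biosamples, and the study writes of individual mice, but no source used here ties a library to a mouse. The p-values measure only the spread between these libraries.

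The 10 genes and the lists were chosen with earlier results of these data known. The genes named beyond the 10 were Npm1, Rela, Bcl3, the 3 smallest p-values in each direction of each list, and the 3 nearest profiles of each gene, or fewer where a gene is not reported here. Replicate pairs of a group differed by a chi-square of 33.6 to 151 per gene, more than counting error, so no 2 were taken as the same library. DESeq2 without a prior filter was added after the data were examined.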

Additional observations from a re-analysis of the deposited data

How the results depend on the processing

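edgeR and limma gave, in every alternative run, 0 calls in the 10 genes, in the 3 lists and in all genes. DESeq2 called 108 genes over 6 libraries, 36 without a prior filter (added after the data were examined), and 1333 without wt1 and ko3. In the last fit it called 1 of the 10 genes, Nfkbiz (-0.50), and 13 of 39 induced genes, against 9.4% of all genes. It also called 3 of the 35 genes of the upstream list, which includes Rela and Bcl3. Over 6 libraries it called 1 induced gene, Tnf. The cause was not tested.
Estimates changed sign in some alternatives, and not only those near 0, since that of Nfkbie was -0.35 with TMM. Scaling to the macrophage markers, which were lower in the ko libraries, moved the median of all genes to 0.59, and Nfkb2 (0.37), Nfkbia (0.32), Nfkbib (0.55), Nfkbid (0.50), Nfkbie (0.17), Nfkbiz (0.35) and Relb (0.51) changed sign, all below that shift. Library totals alone moved the median to 0.17 and gave Nfkbib 0.14, Nfkbid 0.071 and Relb 0.074. limma with plus 1 and plus 0.1, where the median was 0.092 and 0.16, gave Nfkbib 0.15 and 0.15, Nfkbid 0.072 and 0.074, Nfkbiz 0.0069 and 0.0070 and Relb 0.071 and 0.078. Nfkbib was 0.016 with upper quartile scaling and 0.011 with 10 counts in every library. Without wt1 and ko3, Relb was 0.037 (DESeq2 0.0047) and Tnfaip3 -0.16 (DESeq2 -0.20). With 1 library left out, Nfkbib ranged from -0.15 to 0.16, Nfkbid from -0.13 to 0.0070, Relb from -0.20 to 0.035, Tnfaip3 from -0.052 to 0.19, Rel from 0.15 (without wt1) to 0.45 (without wt3), Nfkb1 from 0.0023 to 0.18, Nfkb2 from -0.36 to -0.11, Nfkbia from -0.32 to -0.054, Nfkbie from -0.49 to -0.20 and Nfkbiz from -0.32 to -0.026, with 0 of the 10 called. Over the alternatives, 30 estimates of the 10 genes changed sign and 159 kept sign and side of the threshold.
Libraries with the same replicate number were not treated as pairs. The correlations of deviations were -0.241, 0.0605 and -0.337, and 0 of 6 libraries correlated best with its own number. The replicate block gave 0 calls in all genes and in the 10 genes, with 1606 genes at an unadjusted p under 0.05, and Nfkbib at 0.0033.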

Other observations

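Scaled to the macrophage markers, Rel had the highest and Nfkbie the lowest estimate of the 10 genes, as with TMM. A scaling applies the same factor to all genes of a library, so this order is kept largely by construction. It is no independent check. Less the shift of all genes under the macrophage scaling, Rel was at 0.24 on the log2 scale and Nfkbie at -0.42, with Nfkb1 at 0.11 and Nfkbia at -0.27. For the same reason these values lie near those with TMM. The adjusted p-values from edgeR's quasi-likelihood test under that scaling ran from 0.167 to 0.522 for the 10 genes.

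The summed level of the 10 genes was 7286, 9943 and 8706 CPM in wt1 to wt3 and 8257, 7063 and 9511 CPM in ko1 to ko3. The lowest sums were thus those of ko2 and wt1, 1 library of each group. The ko2 library also had the lowest macrophage sum, at 9847 CPM, and wt1 the highest, at 22009 CPM. The part of cell composition in either low sum was not tested.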
